A study of Mus musculus with 12 samples.

Results

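The expression of 10 genes of hepatic stellate cell identity and activation was followed in mouse livers after acetaminophen (APAP) overdose. The genes were Lrat, Reln, Dcn, Des, Acta2, Tagln, Vim, Pdgfrb, Lox and Tgfb1. They were given by name and matched by symbol to their Ensembl identifiers. All 10 were among the 24187 genes of the count table, and all 10 were among the 22581 genes that had enough counts to be tested.

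Livers came from C57BL/6 mice, whose substrain the study's methods give in more than one form. The control group held 3 mice with neither injury nor treatment. The vehicle group held 5 mice given 350 mg/kg APAP (paracetamol), which destroys hepatocytes around the central veins, followed by PBS. The hAAM group held 4 mice given the same APAP dose followed by human alternatively activated macrophages, cells derived from CD14+ blood monocytes with CSF1 and polarised with IL-4 and IL-13. The 350 mg/kg dose is that of the sample labels, whereas the study describes its sequenced livers beside a model with a higher dose. The time of sampling was not given for these livers separately. Each library came from a piece of one liver, was depleted of ribosomal RNA and was counted against mouse genes only, so RNA of the human cells was not counted on its own.

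Hepatic stellate cells lie in the space between hepatocytes and sinusoidal endothelium and, at rest, store vitamin A as retinyl esters. After injury they can turn into contractile, matrix-forming cells similar to myofibroblasts, a change driven by transforming growth factor beta and platelet-derived growth factor. Lrat, Reln, Dcn and Des are used as markers of the cells themselves, and Acta2, Tagln, Vim, Pdgfrb, Lox and Tgfb1 as markers of activation. None of the activation genes belongs to stellate cells alone: smooth muscle, portal fibroblasts, endothelium, platelets and macrophages express several of them.

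Total counts per liver ran from 60870399 to 74056505 in control, from 50859599 to 61826952 in vehicle and from 47391650 to 55379420 in hAAM livers. Levels are given as CPM, the counts scaled to a fixed library size, after TMM scaling, and errors are SD over livers. Liver identity was clear in every library, since 8 hepatocyte markers summed to between 61860 and 100700 CPM. The libraries hAAM 4 and vehicle 3 were nearly alike: over genes with a mean count of at least 100, their difference was 1.20 times the counting noise, against 2.86 to 7.89 times in the other 35 pairs of APAP livers. Whether both are separate livers with the right group labels cannot be told from these files, and the n of 4 and 5 and the comparison of hAAM with vehicle livers depend on it. For the 10 genes, the ratio of hAAM 4 to vehicle 3 lay between 0.833 for Tagln and 1.08 for Des. Leaving out both livers left 7 genes higher than control in each APAP group, as with them. Vehicle 5 stood apart by other cell types, with 88.7 CPM of B lineage markers against 4.57 to 11.9 in the remaining 11 livers and 1610 CPM of red cell markers against 124 to 598. Without vehicle 5, 6 of the 10 genes were higher in vehicle and 5 in hAAM than in control livers, Des losing its call in both comparisons and Tgfb1 in the latter. The Y-linked gene Ddx3y was present in every liver, at 54.4 to 75.1 CPM, and Xist stayed at or below 2.59 CPM.

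In the GRCm38 assembly the marker genes of cell identity are Lrat at chr3:82892579-82903973 on the minus strand, Reln at chr5:21884454-22344702 on the minus strand, Dcn at chr10:97479609-97518143 on the plus strand and Des at chr1:75360329-75368579 on the plus strand. Of the activation genes, Acta2 lies at chr19:34241090-34255590 and Tagln at chr9:45929619-45936058, both on the minus strand, and, on the plus strand, Vim at chr2:13573927-13582826 and Tgfb1 at chr7:25687002-25705077, with Pdgfrb and Lox located where they are described. All 10 are protein-coding, and the exons of each together cover between 1988 bases in Tagln and 23738 bases in Reln.

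Promoter sequence is shown for 2 genes that rose together in the same livers, Acta2 and Vim, and for Lrat, which did not move with them. RefSeq windows of the 250 bases before the start (GRCm38.p6) were found for 6 of the 10 genes, namely Acta2, Des, Lrat, Reln, Tgfb1 and Vim. Each window was searched on both strands for the CArG box, the site of serum response factor in contractile genes, for TATAAA and for CAGACA, a site of SMAD proteins. No CArG box was found in the 6 windows, and 1.47% of all 32851 windows held one. A looser form, with 1 C or G allowed in the A/T core, was chosen after the Acta2 sequence had been read. It occurred at 2 places in the Acta2 window and at 1 place in the Lrat window, and 8.59% of all windows held it. TATAAA was found in the Vim window alone of the 6, against 12.4% of all windows, and CAGACA was found in the Acta2 window alone, against 17.1%. In GENCODE, 217 bases of the Acta2 window and all 250 bases of the Vim window lie in an annotated first exon, so only 30 bases around each element are given for these 2 genes, at chr19:34255438-34255467 and chr19:34255388-34255417 on the minus strand and at chr2:13574267-13574296 on the plus strand. The Lrat window is chr3:82903975-82904224 on the minus strand and is given whole. Capitals mark the looser CArG form in Acta2 and Lrat and TATAAA in Vim.
Acta2, 94 to 65 bases before the start: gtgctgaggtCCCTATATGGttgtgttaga
Acta2, 44 to 15 bases before the start: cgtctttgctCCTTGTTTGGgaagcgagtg
Vim, 44 to 15 bases before the start: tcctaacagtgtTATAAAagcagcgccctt
Lrat, 250 bases before the start: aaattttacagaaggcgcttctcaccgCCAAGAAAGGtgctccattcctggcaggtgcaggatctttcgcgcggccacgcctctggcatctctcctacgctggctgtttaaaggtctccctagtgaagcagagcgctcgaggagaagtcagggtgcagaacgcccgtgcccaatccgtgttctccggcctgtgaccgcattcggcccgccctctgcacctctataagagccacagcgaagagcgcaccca
These matches describe the letters of the windows and were not tested for binding.

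After APAP and vehicle, 7 of the 10 genes were higher than in control livers and none was lower (FDR under 0.05, edgeR quasi-likelihood test). Of all genes tested, 15.0% were called higher and 14.8% lower in that comparison. The 7 genes were Acta2, Tagln, Vim, Pdgfrb, Lox, Tgfb1 and Des, and in each of them every vehicle liver lay above every control liver, which held for 17.5% of all genes. The remaining 3 genes, Lrat, Reln and Dcn, did not pass the test. After APAP and hAAM the called genes were also these 7, with 10.7% of all genes called higher and 9.96% lower. That number fell to 2 without control 3, to 3 without hAAM 1 or hAAM 2 and to 4 without control 1 or control 2 or when only the 2 groups were fitted, the rest of the 7 no longer passing. Without control 3, only Acta2, Vim and Pdgfrb of the 7 still passed in vehicle livers, while Lrat, at 0.63, passed there (edgeR FDR 0.0332). For 5 of them the hAAM and control livers did not overlap, against 14.3% of all genes, and for Des and Tgfb1 the groups overlapped. The median log2 fold change over the 10 genes was 1.16 in vehicle and 1.12 in hAAM livers, while the median over all genes was 0.01 and 0.02. The APAP groups were compared with the same 3 control livers, so these 2 sets of values are not independent. In whole liver, more cells of a type and more RNA per cell cannot be told apart.

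**Figure D1:**
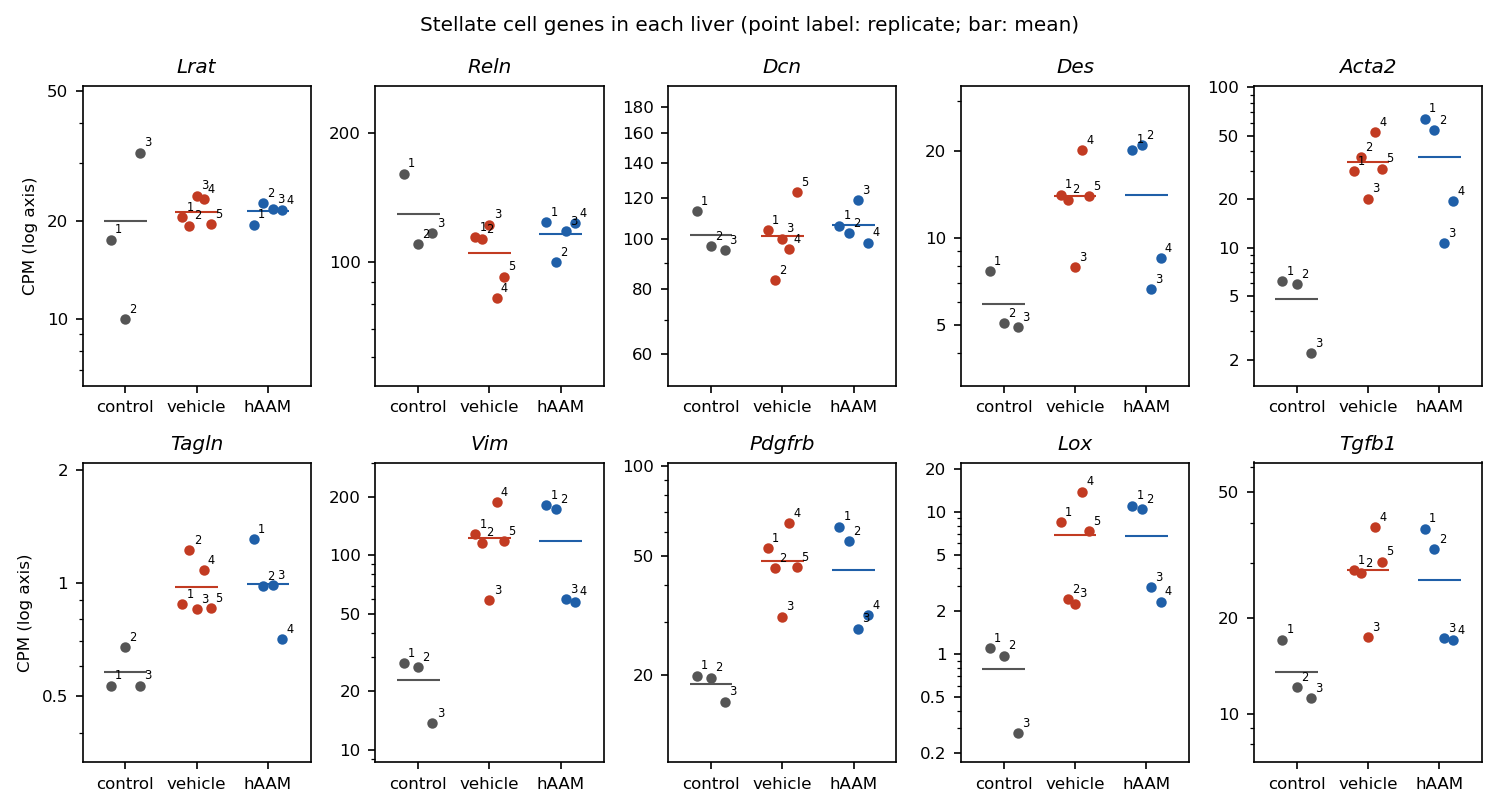
CPM of each gene on a log axis in the 3 control, 5 vehicle and 4 hAAM livers; points are livers labelled by replicate and bars are group means. Lrat, Reln and Dcn stayed at similar means in the 3 groups, whereas Acta2 rose from a control mean of 4.77 CPM to 34.1 in vehicle and 37.0 in hAAM livers.

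Lrat encodes lecithin retinol acyltransferase, the enzyme that esterifies retinol for storage. It was at 17.5, 10.0 and 32.4 CPM in the 3 control livers, at 20.6, 19.4, 23.9, 23.3 and 19.5 CPM in the vehicle livers and at 19.5, 22.7, 21.8 and 21.6 CPM in the hAAM livers. All 9 injured livers thus lay inside the range of the controls, and the spread was in the controls, with a coefficient of variation of 57.0% against 9.97% in vehicle and 6.42% in hAAM livers. The log2 fold change was 0.10 in vehicle (95% interval -0.47 to 0.67, edgeR FDR 0.810) and 0.10 in hAAM livers (-0.50 to 0.70, FDR 0.824). This null result depended on single controls. Without control 3, Lrat was called higher in vehicle livers, with a log2 fold change of 0.63 and an edgeR FDR of 0.0332. In hAAM livers it then reached 0.64 without a call. Without control 2 the direction turned, to -0.23 in vehicle and -0.22 in hAAM livers, neither called.

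Reln encodes reelin, a large secreted glycoprotein made by stellate cells in the liver. It was at 161, 110.1 and 117 CPM in control livers, at 114, 113, 122, 82.4 and 92.6 CPM in vehicle livers and at 124, 99.9, 118 and 123 CPM in hAAM livers. Control 1 was the highest of the 12 livers, and the groups overlapped. The log2 fold change was -0.30 in vehicle (95% interval -0.63 to 0.03, edgeR FDR 0.152) and -0.15 in hAAM livers (-0.50 to 0.19, FDR 0.530). With 1 liver left out, the vehicle value ran from -0.41 to -0.11. Without control 1 the hAAM value was 0.037. An antisense gene, Gm10475, shares 246 exonic bases with Reln but held only 10 to 30 counts per liver, against 5393 to 8441 for Reln.

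Dcn encodes decorin, a small leucine-rich proteoglycan that binds collagen fibrils and transforming growth factor beta. Its level was 113, 96.8 and 95.3 CPM in control, 104, 83.4, 100.3, 95.7 and 123 CPM in vehicle and 106, 103, 119 and 98.4 CPM in hAAM livers. Its log2 fold change was the smallest of the 10 genes in both APAP groups, and the groups overlapped. The group means were 101.7 ± 9.88 CPM in control (n = 3), 101.3 ± 14.6 CPM in vehicle (n = 5) and 106.6 ± 8.82 CPM in hAAM livers (n = 4). The log2 fold change was -0.01 in vehicle (95% interval -0.26 to 0.25, edgeR FDR 0.977) and 0.07 in hAAM livers (-0.20 to 0.33, FDR 0.736).

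Des encodes desmin, an intermediate filament protein of muscle and of rodent stellate cells. Unlike the other identity markers it rose, from 7.70, 5.08 and 4.92 CPM in control livers to 14.2, 13.6, 7.92, 20.3 and 14.0 CPM in vehicle livers. In hAAM livers Des was at 20.3, 21.1, 6.64 and 8.55 CPM. Vehicle 3 lay just above control 1, and hAAM 3 lay below it. The log2 fold change was 1.25 in vehicle (SE 0.400, edgeR FDR 0.0342) and 1.26 in hAAM livers (SE 0.414, FDR 0.0486). Both calls were near the threshold: the vehicle call was lost in 7 of 20 alternatives, among them those without control 2 or 3 or without vehicle 1, 2, 4 or 5, with the FDR reaching 0.115, and the hAAM call in 11 of 20.

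Acta2 encodes alpha smooth muscle actin, the contractile actin by which activated stellate cells are usually recognised. It was at 6.18, 5.93 and 2.19 CPM in control livers, at 30.1, 36.8, 20.2, 52.5 and 31.1 CPM in vehicle livers and at 63.7, 54.0, 10.7 and 19.6 CPM in hAAM livers. Every injured liver exceeded every control, and the hAAM livers held both the highest value of the series and the lowest of any injured liver. The mean rose 7.16-fold in vehicle and 7.76-fold in hAAM livers. The log2 fold change was 2.84 (SE 0.596, edgeR FDR 0.00484) and 2.95 (SE 0.611, FDR 0.00732). Actin genes share near-identical coding sequence, and how reads that fit several of them were assigned was not given, so a part of these counts is uncertain in origin.

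Tagln encodes transgelin, an actin-binding protein of smooth muscle. It was present at 0.534, 0.676 and 0.534 CPM in control livers, at 0.878, 1.22, 0.852, 1.08 and 0.858 CPM in vehicle livers and at 1.31, 0.982, 0.988 and 0.709 CPM in hAAM livers. The lowest injured liver, hAAM 4, lay just above the highest control. The log2 fold change was 0.74 in vehicle (SE 0.222, edgeR FDR 0.0251) and 0.77 in hAAM livers (SE 0.231, FDR 0.0347). These values rested on 27 to 43 counts per control liver and 38 to 73 per injured liver. In the annotation 1241 of the 1988 exonic bases of Tagln are also covered by Gm48529, a gene on the other strand, which held 49 to 59 counts in control, 62 to 126 in vehicle and 60 to 110 in hAAM livers. The library kit marks strand, but the strand setting of the counting was not given in the sources used here, so reads of the pair could have been shared or dropped. The call was lost in 5 of 20 alternatives in vehicle and 6 of 20 in hAAM livers. Among them were those without control 1 or 3, the FDR then reaching 0.0866 in vehicle and 0.109 in hAAM livers, those without vehicle 2 or 4 in the former, and those without hAAM 1 or 2 or with only the 2 groups fitted in the latter.

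Vim encodes vimentin, the intermediate filament protein of mesenchymal cells, which endothelium and white blood cells contain too. It was at 28.0, 26.7 and 13.8 CPM in control livers, at 129, 116, 58.9, 188 and 119 CPM in vehicle livers and at 182, 174, 59.7 and 57.9 CPM in hAAM livers. Every injured liver lay above every control, the lowest being hAAM 4, vehicle 3 and hAAM 3. The mean rose 5.36-fold in vehicle and 5.18-fold in hAAM livers, with log2 fold changes of 2.42 (SE 0.491, edgeR FDR 0.00401) and 2.37 (SE 0.501, FDR 0.00800). Vim and Acta2 were called against control in all 20 alternative analyses of each APAP group.

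Pdgfrb encodes the beta receptor for platelet-derived growth factor, a mitogen of stellate cells, and lies at chr18:61045150-61085061 on the plus strand. It was at 19.8, 19.6 and 16.2 CPM in control livers, at 53.0, 45.6, 31.3, 64.3 and 45.8 CPM in vehicle livers and at 62.7, 56.0, 28.5 and 31.6 CPM in hAAM livers. The controls lay close together, with a coefficient of variation of 10.8%, and no injured liver overlapped them. The mean rose 2.59-fold in vehicle (log2 fold change 1.37, SE 0.283, edgeR FDR 0.00434) and 2.41-fold in hAAM livers (1.27, SE 0.290, FDR 0.0114). The hAAM call was lost without control 3, at an edgeR FDR of 0.0504, and held in the other 19 alternatives.

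Lox encodes lysyl oxidase, which cross-links collagen and elastin, and lies at chr18:52516067-52529867 on the minus strand. It was the least abundant of the genes per length in control livers, at 1.11, 0.975 and 0.277 CPM. It reached 8.43, 2.44, 2.27, 13.9 and 7.31 CPM in vehicle livers and 11.1, 10.5, 2.96 and 2.33 CPM in hAAM livers. Its spread between injured livers was the widest of the genes, with a coefficient of variation of 70.2% in vehicle and 70.1% in hAAM livers, yet the groups did not overlap. The mean rose 8.74-fold and 8.54-fold, and the log2 fold change was 3.12 in vehicle (SE 0.799, edgeR FDR 0.0127) and 3.08 in hAAM livers (SE 0.814, FDR 0.0211). Control 3 held 14 counts. Without control 3 the FDR was 0.0530 in vehicle and 0.0793 in hAAM livers, and the hAAM call was also lost without control 2, hAAM 1 or hAAM 2.

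Tgfb1 encodes transforming growth factor beta 1, the ligand best known for driving stellate cell activation. It was at 17.1, 12.1 and 11.2 CPM in control livers, at 28.3, 27.8, 17.5, 38.8 and 30.2 CPM in vehicle livers and at 38.4, 33.2, 17.3 and 17.1 CPM in hAAM livers. Vehicle 3, hAAM 3 and hAAM 4 were level with control 1. The mean rose 2.11-fold in vehicle (log2 fold change 1.08, SE 0.311, edgeR FDR 0.0218) and 1.96-fold in hAAM livers (0.97, SE 0.321, FDR 0.0498). The hAAM call was lost in 12 of 20 alternatives, the FDR reaching 0.157 without control 3, and the vehicle call was lost without control 2 or 3.

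**Figure D2:**
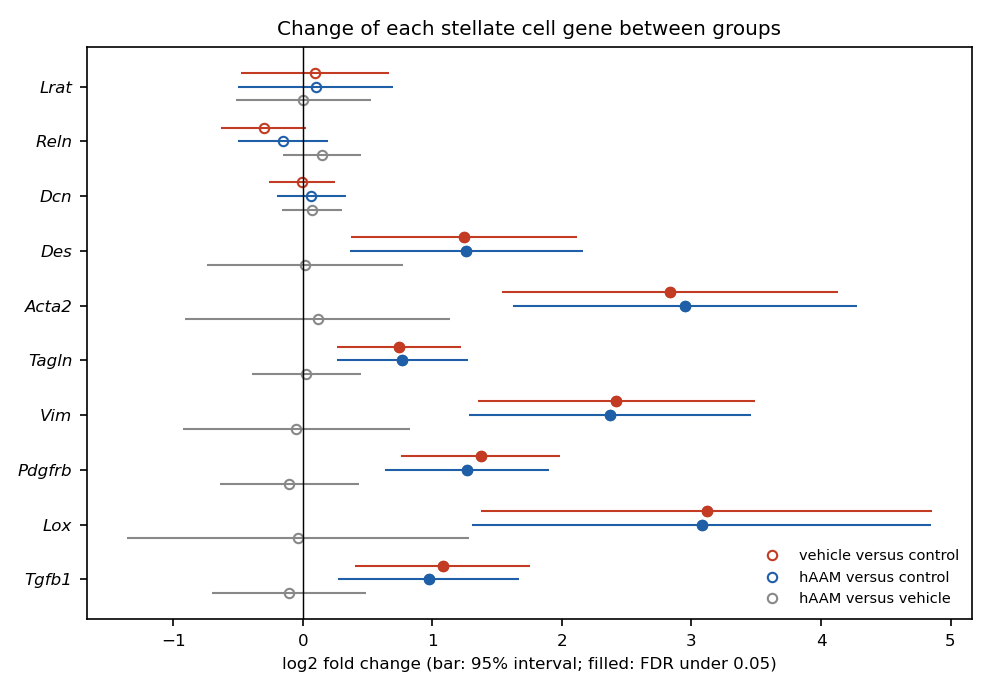
Log2 fold change of each gene with its 95% interval in the 3 comparisons between groups; filled points passed an FDR of 0.05. Intervals of Acta2, Vim, Pdgfrb, Lox, Tgfb1, Des and Tagln lie above 0 in both APAP groups against control, and all 10 intervals of hAAM against vehicle livers include 0.

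The order of levels per length of exon changed between control and injured livers. In control livers Dcn was first, at 17.4 CPM per kilobase, and lay apart from the next, Reln, at 5.45. From Reln down to Des, at 1.57 CPM per kilobase, the ranges of neighbouring genes overlapped, and Tagln at 0.292 and Lox at 0.164 were lower without overlap. In vehicle livers Vim, at 25.8 CPM per kilobase, came before Dcn, at 17.4, and Acta2, at 15.5. Pdgfrb followed at 8.76, Tgfb1 at 5.66, Reln at 4.42, Lrat at 3.99, Des at 3.73, Lox at 1.44 and Tagln at 0.491. The hAAM livers had the same order, from Vim at 24.9 to Tagln at 0.501 CPM per kilobase. Ranges over livers overlapped between every pair of neighbours in both APAP groups.

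Counts of 4 activation genes, Acta2, Vim, Pdgfrb and Lox, were also set against those of Dcn in the same liver. This ratio needs no scaling between libraries. Tgfb1 and Tagln were not included. Per 100 Dcn counts there were 2.30 to 6.12 Acta2 counts in control livers, 20.1 to 54.8 in vehicle and 8.99 to 60.0 in hAAM livers. Vim gave 27.6 at most in control livers and 50.2 at least in injured livers. For Pdgfrb the ratio was 17.1 to 20.2 in control, 31.2 to 67.2 in vehicle and 24.0 to 59.1 in hAAM livers. For Lox it was at most 1.01 in control and at least 2.26 in injured livers. The injured livers therefore lay above the controls in all 4 ratios to Dcn. Set against Lrat, which varied among the controls, the same genes separated less. In all 4 ratios to Lrat the control range overlapped that of the vehicle or the hAAM livers. Pdgfrb gave 50.2 to 195 counts per 100 Lrat counts in control livers and 131 to 276 in vehicle livers.

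The 7 genes that rose were high and low in the same livers. Vehicle 3 was the lowest vehicle liver for all 7 and vehicle 4 the highest for 6, Tagln being highest in vehicle 2. hAAM 1 was the highest hAAM liver for 6 genes and hAAM 2 for Des, while the lowest was hAAM 3 for 3 genes and hAAM 4 for 4. With group means removed, the 15 pairs among Acta2, Vim, Pdgfrb, Lox, Tgfb1 and Des had Pearson correlations of 0.80 to 0.97 over 12 livers, with a median of 0.91. Des and Tgfb1 were the most alike pair. Tagln correlated with the same 6 genes at 0.37 to 0.61. Correlations of the 6 genes with Lrat, Reln and Dcn ranged from -0.42 to 0.30. The points share library depth and scaling, and vehicle 3 and hAAM 4 are the nearly alike pair, so these correlations are descriptions. How often other genes correlated this strongly was not tested. The summed hepatocyte markers ran the other way, highest in vehicle 3 and hAAM 3 and lowest in vehicle 4 and hAAM 2 of their groups.

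**Figure D3:**
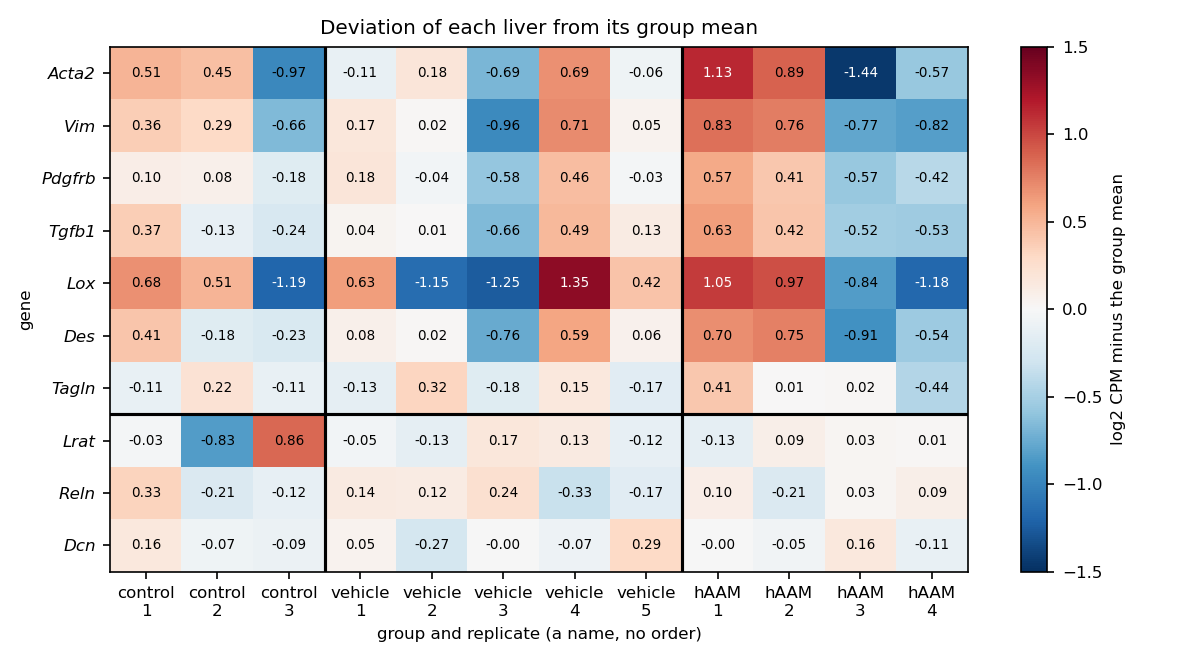
Log2 CPM of each gene in each liver minus the mean of its group, with the 7 genes that rose above the horizontal line and Lrat, Reln and Dcn beneath it. Vehicle 3, hAAM 3 and hAAM 4 are low and vehicle 4, hAAM 1 and hAAM 2 high for nearly all of the upper genes, while Lrat varied mainly between control 2 and control 3.

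The genes whose liver-to-liver pattern was most like that of 3 chosen genes were looked up among 11172 genes of at least 2 log2 CPM, over the 12 livers with group means removed. For Acta2 they were Myl9 (r = 0.98), Alcam (0.98) and Fbl (0.98). Myl9, a regulatory light chain of myosin, did not pass the test in either APAP group (vehicle log2 fold change 1.34, edgeR FDR 0.0745), although Acta2 did. For Vim they were Fbn1 (0.99), which encodes fibrillin and was higher in vehicle livers by 2.20 on the log2 scale (edgeR FDR 0.00788), Maged2 (0.98) and Crtap (0.98). For Lrat they included Dcaf5 (0.93) and Them7 (0.90). Without the nearly alike pair the correlations of these 8 genes lay between 0.92 and 0.99.

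Lists of related genes were then counted, with the members kept apart where they belonged to a list. Of 30 myofibroblast activation genes, 6 were members. Of the other 24, 16 were higher in vehicle livers and 14 in hAAM livers and none was lower, with median log2 fold changes of 1.82 and 1.75. Tnc, the matrix protein tenascin C, was at 2.67 ± 1.06 CPM in control (n = 3), 60.1 ± 25.4 CPM in vehicle (n = 5) and 47.7 ± 32.7 CPM in hAAM livers (n = 4), with a log2 fold change of 4.49 in vehicle livers (edgeR FDR 0.000813). Ccn2, a matricellular protein induced by transforming growth factor beta, had log2 fold changes of 2.76 in vehicle and 2.58 in hAAM livers. S100a6 and Lgals1 rose by 3.80 and 2.27 in vehicle livers. Several genes of the list passed in neither comparison. Col3a1, a fibrillar collagen, was at 1.38 in vehicle (edgeR FDR 0.0678) and 1.66 in hAAM livers (FDR 0.0512), with every injured liver above every control. Spp1, osteopontin, was at 1.96 and 2.19 and Myl9 at 1.34 in both groups. Fap, Thbs2, Fn1 and Mmp2 were between -0.52 and 0.33 in both groups.

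Of 30 genes of quiescent stellate cells, 4 were members. Of the other 26, 3 were higher and 2 lower in vehicle livers, and 3 were higher and 3 lower in hAAM livers, with median log2 fold changes of 0.12 and 0.03. These shares were under those of all genes in vehicle livers and close to them in hAAM livers. The largest fall was that of Steap4, a metalloreductase, from 1278 ± 238 CPM in control to 163 ± 4.63 CPM in vehicle and 173 ± 21.7 CPM in hAAM livers (vehicle log2 fold change -2.97, edgeR FDR 3.1e-07). The control mean of Steap4 exceeded the 19.97 CPM of Lrat and the 101.7 CPM of Dcn, and which cells held its RNA was not tested. Fgfr2, a fibroblast growth factor receptor, fell by 0.79 and 0.73 on the log2 scale. Pth1r, the parathyroid hormone receptor, rose by 0.90 and 0.76, and Cygb, cytoglobin, by 0.58 and 0.57. Gfap, Hgf, Ngfr, Pdgfra, Ecm1 and Colec11 were among the 22 genes, members included, that passed in neither comparison.

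Of the 16 retinoid storage and metabolism genes besides Lrat, none was higher and 4 were lower in vehicle livers, and 1 was higher and 2 lower in hAAM livers. Aldh1a1, a retinaldehyde dehydrogenase that hepatocytes also make, was at 639.6 ± 137 CPM in control, 249.5 ± 70.0 CPM in vehicle and 314 ± 35.8 CPM in hAAM livers (vehicle log2 fold change -1.36, edgeR FDR 0.000864). Dhrs3, a retinal reductase, fell by 0.76 in vehicle and 0.48 in hAAM livers, the latter call (edgeR FDR 0.0499) holding in only 4 of 20 alternatives, and Stra6l, a receptor for retinol-binding protein, and Rdh10, a retinol dehydrogenase, fell by 0.76 and 0.40 in vehicle livers. In the reelin pathway, Lrp8, a reelin receptor, rose from 0.416 CPM in control to 3.44 CPM in vehicle and 1.94 CPM in hAAM livers, whereas Vldlr, the other receptor, fell by 1.23 and 0.98 on the log2 scale and Crkl, an adaptor, by 0.54 and 0.43. Among the 8 small leucine-rich proteoglycans besides Dcn, Podn alone passed, falling by 0.73 in vehicle livers.

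Around Tgfb1, 7 of the 12 other ligand and latency genes were higher in vehicle and 5 in hAAM livers, and none was lower. Tgfb3 went from 1.30 ± 0.0164 CPM in control to 4.17 ± 1.02 CPM in vehicle and 3.65 ± 2.30 CPM in hAAM livers (vehicle log2 fold change 1.69, edgeR FDR 0.0130). Lrrc32, which holds latent transforming growth factor beta at the cell surface, rose by 0.95 and 0.64, and Itgav, an integrin chain that takes part in its activation, by 0.86 and 0.73. The hAAM calls of Tgfb3 and Itgav each held in 13 of 20 alternatives. Itgb6, another such chain, was below 0.5 CPM in every group mean. Of 16 receptor and SMAD genes, 6 were higher and 2 lower in vehicle and 3 were higher and 3 lower in hAAM livers. Tgfbr2, the type II receptor, rose by 1.00 and 0.92. Smad7, an inhibitory SMAD, rose by 0.94 in vehicle livers. Smad4 and the ubiquitin ligase Smurf2 fell by 0.27 and 0.31 in vehicle and by 0.29 and 0.35 in hAAM livers. Under scaling by library size alone these directions turned, except for Smurf2 in hAAM livers, which was at -0.05 without a call. Of 10 response genes, 6 and 4 were higher and none was lower. Among them were Id1, at 2.67 CPM in control, 19.95 CPM in vehicle and 13.9 CPM in hAAM livers, and Pmepa1, which rose by 0.97 in vehicle livers, where the groups overlapped and the call held in 13 of 20 alternatives.

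Around Pdgfrb, 3 of the 4 ligands passed the test, in differing directions, and Pdgfd, at -0.01 and 0.10 on the log2 scale, did not. Pdgfa and Pdgfb were higher in vehicle livers by 1.15 and 1.01 and in hAAM livers by 1.04 and 0.93, the hAAM call of Pdgfb holding in 10 of 20 alternatives, while Pdgfc fell from 10.3 ± 0.313 CPM in control to 3.90 ± 0.387 CPM in vehicle and 5.02 ± 1.04 CPM in hAAM livers (vehicle edgeR FDR 8.8e-05). Pdgfrl, a receptor-like gene, fell by 0.88 in vehicle livers, where the groups overlapped and the call held in 13 of 20 alternatives. Around Lox, Loxl1 rose by 1.55 and 1.47, Loxl2 rose by 1.34 in vehicle livers, with overlapping groups and a call that held in 13 of 20 alternatives, and Loxl3 and Loxl4 did not pass in either group. Of the 6 intermediate filament genes besides Vim and Des, Nes, which encodes nestin, rose by 2.11 and 1.98 and Lmna, which encodes lamins A and C, by 1.11 and 0.84, the hAAM call of Lmna holding in 7 of 20 alternatives. Of the 14 smooth muscle genes besides Acta2, Tagln and Des, 4 were higher and 3 lower in vehicle and 2 were higher and 1 lower in hAAM livers. Tpm2, a tropomyosin, rose by 1.90 and 1.79 and Mylk, myosin light chain kinase, by 0.47 in vehicle livers. Pln, phospholamban, fell by 0.92 in vehicle livers, and Mrtfa, a cofactor of serum response factor, by 0.38 and 0.37. The calls of Mrtfa held in 16 and 13 of 20 alternatives, and with scaling by library size alone its values were -0.03 and -0.06. Myh11, Myocd, Cnn1 and Srf passed in neither.

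**Figure D4:**
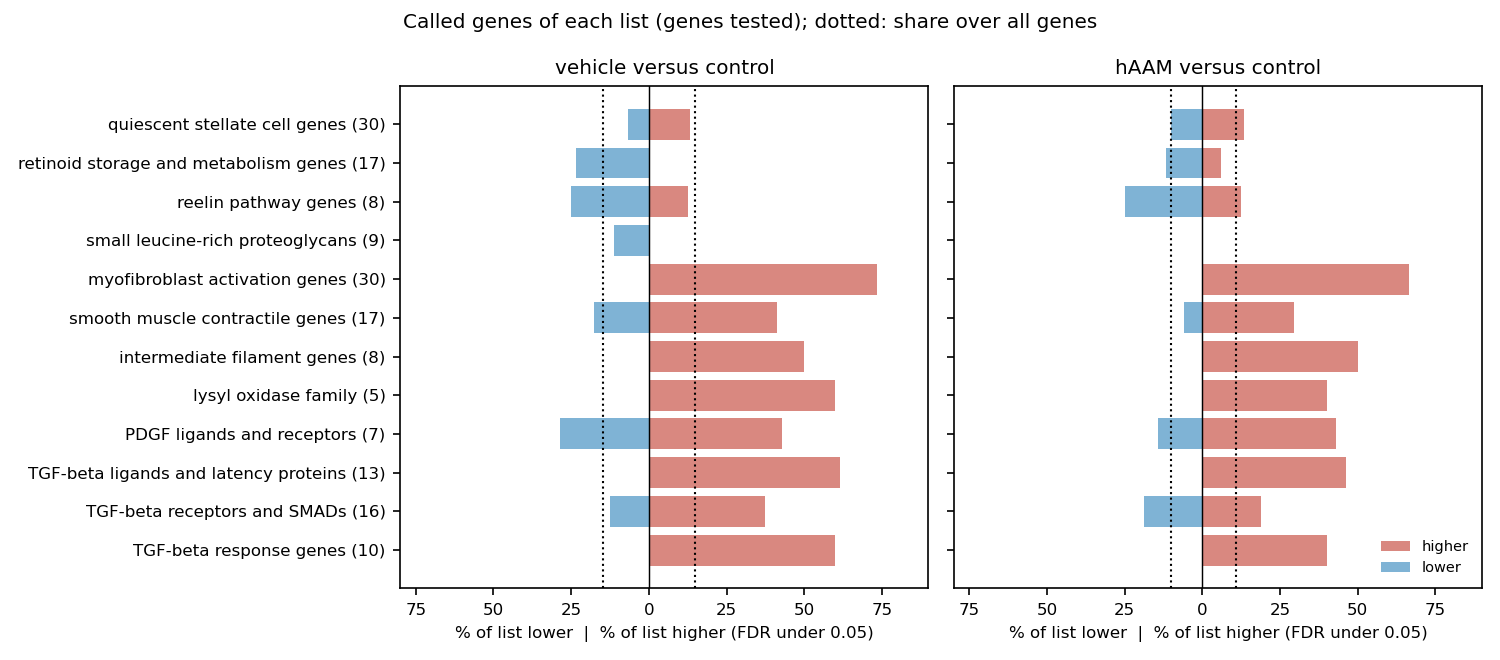
Share of each list called lower (left) and higher (right) at an FDR of 0.05 in vehicle and hAAM livers against control, members included, with the number of genes tested in brackets. Dotted lines mark the shares over all genes, 14.8% lower and 15.0% higher for vehicle and 9.96% lower and 10.7% higher for hAAM. Myofibroblast activation genes reach far past the dotted lines on the higher side, and quiescent stellate cell genes stay near or inside them.

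Of the other cells that express the activation genes, markers of some types moved in the injured livers and those of others did so little. For scale, 15.0% of all genes were called higher in vehicle and 10.7% in hAAM livers. Of 10 markers of recruited monocytes and macrophages, 8 were higher in each APAP group, and their summed level was 83.6 to 100.3 CPM in control, 187 to 361 CPM in vehicle and 187 to 431 CPM in hAAM livers. It was lowest in vehicle 3 among the vehicle livers and in hAAM 4 among the hAAM livers, and highest in vehicle 4 and hAAM 1, as for Vim. Cd68 rose by 2.22 and 2.10, Chil3 by 5.67 and 5.45, Trem2 by 2.78 and 2.94 and Gpnmb by 4.54 and 5.43, whereas Ptprc did not pass. Of 10 sinusoidal endothelial markers, 5 and 3 were higher, with summed levels of 504 to 544 CPM in control, 580 to 728 CPM in vehicle and 536 to 719 CPM in hAAM livers. Lyve1 rose by 1.29 and 1.15, Cdh5 by 1.01 and 0.79 and Oit3 by 0.42 and 0.36, and Pecam1 rose by 1.00 and Stab1 by 0.62 in vehicle livers. The hAAM call of Cdh5 held in 11 of 20 alternatives. The other endothelial markers passed in neither group: Clec4g was at -0.58 and -0.67, with every injured liver below every control (edgeR FDR 0.0598 and 0.0533), Kdr at -0.10 and -0.13, and Stab2, Gpr182 and Fcgr2b between 0.03 and 0.23. Of 4 platelet markers, 3 and 1 were higher. Their sum was 3.90 to 4.19 CPM in control, 6.29 to 15.8 CPM in vehicle and 4.76 to 11.4 CPM in hAAM livers, and Pf4 rose by 3.11 and 2.73. Of 7 Kupffer cell markers, Marco alone rose, by 1.68 and 1.48. Among the vehicle livers the Kupffer sum was lowest in vehicle 5 and highest in vehicle 1, unlike the sum of the monocyte and macrophage markers. Of 10 portal fibroblast markers, Fbln2 alone rose, by 2.11 and 1.73, with sums of 10.9 to 24.0 CPM in control, 19.3 to 41.5 CPM in vehicle and 20.2 to 37.4 CPM in hAAM livers. None of 6 mesothelial markers passed. No marker in these lists was at 0 counts in any liver, and the lowest count was 1, in the platelet list. The part of these cells in the rise of Vim, Tgfb1, Acta2 and the other genes was not tested.

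Between the APAP groups none of the 10 stellate cell genes passed the test. Over all 22581 genes, 0 were called by edgeR (0%), and 1133 (5.02%) had an unadjusted p under 0.05. The latter number was 717 without vehicle 5 and 1776 without vehicle 3, where edgeR called 1 gene. None of the 10 genes was among those 1133, and their edgeR FDR lay between 0.980 and 1.000. DESeq2 called 0 of the 10 and 1 of all genes. The median log2 difference of hAAM from vehicle livers over the 10 genes was 0.01, against 0.00 over all genes. The intervals were narrow for Dcn (-0.16 to 0.31), Reln (-0.16 to 0.45) and Tagln (-0.39 to 0.45), and for Lrat the interval was -0.52 to 0.53. They were wide for the genes that had risen most: -0.91 to 1.14 for Acta2, -0.93 to 0.83 for Vim and -1.36 to 1.28 for Lox. For Pdgfrb the interval was -0.64 to 0.43, for Tgfb1 -0.70 to 0.49 and for Des -0.74 to 0.77. A level 2-fold higher in hAAM livers lay inside the intervals of Acta2 and Lox and outside those of the other 8 genes, and a level 2-fold lower lay inside that of Lox alone. The vehicle mean of Acta2 was 34.1 ± 11.9 CPM (n = 5) and the hAAM mean 37.0 ± 25.8 CPM (n = 4), with hAAM 1 and hAAM 2 above all vehicle livers and hAAM 3 and hAAM 4 below all of them.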

How the data were processed

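The authors trimmed paired-end reads with cutadapt 4.6 and aligned them to GRCm38 with STAR 2.7.1a (versions from the submitters' processing notes), and counted reads per gene with summarizeOverlaps. Strand setting and overlap mode were not given in the sources used here. The deposited values are raw counts, not normalized, for 24187 genes and 12 livers. Symbols and coordinates were taken from GENCODE M21, in which 24128 identifiers matched. Promoter windows were from RefSeq.

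Counts were filtered with filterByExpr by group and TMM-scaled, and 1 quasi-likelihood model with the 3 groups was fitted to all 12 livers with edgeR 4.0.16 in R 4.3.3. P-values were two-sided and adjusted over 22581 genes by Benjamini-Hochberg, with an FDR of 0.05 as threshold; intervals are at 95%. Log2 CPM carried a prior count of 2. The mice are the replicates. CPM per kilobase used the union of exons. On simulated counts for vehicle against control, with 22581 genes, 65 of 100 genes changed 2-fold and 94 of 100 changed 4-fold were recovered.

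The genes and lists were chosen with earlier results of these data known. Named are all 10 genes and up to 4 further genes per list, those of smallest p in vehicle against control; Fap, Thbs2, Col3a1, Fn1, Mmp2, Myl9, Pdgfd, Epcam, Hgf, Ngfr, Pdgfra, Ecm1, Colec11, Myh11, Myocd, Cnn1, Srf, Stab1, Clec4g, Kdr, Stab2, Gpr182, Fcgr2b and Ptprc were added after their values were seen. Pearson correlation named the 3 genes most like Acta2, Lrat and Vim, of which 1 is not reported here. Alternatives were DESeq2 1.42.0, its size factors in edgeR, library size alone, no filter, a minimum of 10 counts in every liver, only the groups compared, the replicate number as block, each liver left out, and omission of the nearly alike pair.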

Additional observations from a re-analysis of the deposited data

How the results depend on the processing

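Counts of called stellate cell genes, and fold changes of these genes and of those chosen by the naming rule that passed the test, were recomputed under up to 20 alternatives. Ratios, correlations, summed levels, list counts, genes that passed in neither comparison and genes added after their values were seen were not. Acta2 and Vim were called against control in all 20 in both APAP groups, Pdgfrb in 20 and 19, Lox in 19 and 16, Tgfb1 in 18 and 8, Tagln in 15 and 14 and Des in 13 and 9 (vehicle and hAAM). The number of genes called in vehicle livers was 4 to 7 with 1 liver left out, 4 without control 3, of which 1 was Lrat, so that 3 of the 7 kept their call. In hAAM livers it was 2 to 7: 4 without control 1 or control 2, 2 without control 3 and 3 without hAAM 1 or hAAM 2. It was also 4 when only the 2 groups were compared. With the replicate number as a block it was 5 in vehicle and 4 in hAAM livers, Tagln (edgeR FDR 0.0556 and 0.0705) and Des (0.0619 and 0.0751) not passing in either and Tgfb1 (0.0632) not in hAAM livers; the numbers did not pair the livers, since correlations of same-numbered livers ranged from -0.60 to 0.54 and only 1 of 4 hAAM livers correlated best with the vehicle liver of its own number. Between the APAP groups 0 of the 10 genes were called under every alternative, and 697 of all genes had an unadjusted p under 0.05 with the block, against 1133. DESeq2 called 7 and 7 genes. Of the other genes named, the hAAM calls of Fbln2 held in 14 alternatives, of Cygb, Tpm2 and Vldlr in 15, of Loxl1 and Oit3 in 16 and of Lyve1 in 17, and the vehicle calls of Cygb, Pln and Podn in 17. Over all genes, 6719 were called in vehicle and 4666 in hAAM livers; the block gave 4253 and 2959, the 2 groups alone gave 2729 in hAAM livers, and leaving out 1 liver gave 4633 to 7197 and 2419 to 5456, the lowest without control 3 in both.

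TMM factors were 0.832 to 0.859 in control, 1.02 to 1.13 in vehicle and 0.933 to 1.14 in hAAM livers. Scaling by library size alone, which omits them, shifted all genes together, to a median of 0.36 in vehicle and 0.32 in hAAM livers. Then 8637 of 9747 and 6559 of 7340 calls were higher, against 3380 of 6719 and 2418 of 4666. There Dcn was at 0.34 (edgeR FDR 0.0451), Reln at 0.039, Smurf2 at 0.041 and Smad4 at 0.081 in vehicle livers, and Reln at 0.15 and Smad4 at 0.0097 in hAAM livers, and Tagln at -0.013 and Lrat at -0.040 for hAAM against vehicle. Rdh10 (-0.06) and Hnf4a (-0.03) in vehicle livers, Smurf2 (-0.05) and Dhrs3 (-0.19) in hAAM livers and Crkl (-0.19 and -0.13) in both then did not pass. Dcn in vehicle livers was also 0.010 with the count minimum and 0.0050 without the nearly alike pair. With the block, the differences of hAAM from vehicle livers were -0.16 for Acta2, -0.0255 for Tagln, -0.043 for Des, -0.00819 for Lrat and 0.13 for Lox, and without the nearly alike pair 0.021 for Lox. With 1 liver left out, values against control ran from -0.23 to 0.63 for Lrat and -0.084 to 0.078 for Dcn in vehicle livers and from -0.22 to 0.64 for Lrat and -0.26 to 0.037 for Reln in hAAM livers. Likewise, hAAM against vehicle ran from -0.28 to 0.42 for Acta2, -0.13 to 0.16 for Tagln, -0.24 to 0.25 for Des, -0.31 to 0.062 for Pdgfrb, -0.028 to 0.048 for Lrat, -0.39 to 0.39 for Lox, -0.34 to 0.054 for Tgfb1 and -0.33 to 0.18 for Vim. Why the TMM factors differed between the groups, and why values moved with single livers, was not tested. With 3 control livers, calls near the threshold depended on single livers, and the counts of Tagln and control Lox were low.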

Other observations

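Some other lists held values that belong to no comparison above. The 5 cholangiocyte markers summed to 40.3 to 65.5 CPM in control, 64.1 to 301 CPM in vehicle and 63.8 to 231 CPM in hAAM livers, and 0 of them passed the edgeR test in either APAP group. Most of the difference was in Spp1, also counted above among the myofibroblast activation genes, with means of 25.3, 98.05 and 115 CPM, while Krt19, Krt7 and Epcam were at 0.761 to 1.59 CPM in every group mean and Sox9 at 29.0, 40.2 and 27.7 CPM. Of 4 red cell markers, Hbb-bs, Hba-a1 and Hbb-bt were higher in vehicle livers, by 2.49, 2.56 and 2.46 on the log2 scale, with a summed level of the 4 markers of 1610 CPM in vehicle 5 and 182 to 410 CPM in the other vehicle livers. These calls held in 16 of 20 alternatives, with edgeR FDR values up to 0.112 without control 3, and without vehicle 5 the log2 fold changes were 1.54, 1.56 and 1.49. In hAAM livers they were at 2.24, 2.21 and 2.23, with every liver above every control, and did not pass (edgeR FDR 0.0618 to 0.0693), while Alas2 was lower in both groups. Of 8 hepatocyte markers, Hnf4a, Cyp2e1 and Glul were lower in vehicle livers and Glul in hAAM livers, the call of Hnf4a holding in 12 of 20 alternatives.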
